A study of Drosophila melanogaster with 2 samples.

Results

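The odorant receptor (Or), gustatory receptor (Gr) and ionotropic receptor (Ir) genes of Drosophila melanogaster were examined in chromatin immunoprecipitation sequencing (ChIP-seq) of the homeodomain protein bsh. The 179 members were the protein-coding genes of the Ensembl BDGP6 annotation whose symbol is Or, Gr or Ir followed by a digit, out of 13945 protein-coding genes on the chromosome arms. They comprised 59 Or, 60 Gr and 60 Ir genes, and 7 pseudogenes with such symbols were left out. Chromatin came from whole embryos of both sexes, aged 0 to 24 h, of 1 transgenic line that stably carries bsh with GFP at its C-terminus, and was precipitated with an antibody to GFP. The 2 samples were biological replicates of this 1 group. No second condition and no control entered the analysis. The signal that chromatin without the fusion protein would give was not tested, and conditions could not be compared. The labels do not say which cells hold the fusion protein, and whole embryos mix all tissues. Depth is unknown, because the deposited lists hold regions and no read numbers.

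Insects detect odours and tastes with these receptor families. Or proteins form odorant-gated channels together with the shared co-receptor Orco, Gr proteins detect sugars, bitter compounds and carbon dioxide, and Ir proteins are relatives of ionotropic glutamate receptors that work with the co-receptors Ir8a, Ir25a and Ir76b. Each receptor gene is typically active in a small set of sensory neurons, and many members lie in tandem groups. The bsh protein, brain-specific homeobox, helps set the fate of neurons in the optic lobe.

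Region summits were placed from a pair of deposited lists on genome build dm6. The first, with 4447 regions, passed a cutoff on the irreproducible discovery rate (IDR), which scores whether a region ranks alike in both replicates. The second is the relaxed list called on the reads of both replicates together, with 30000 regions, which also takes in background. The IDR regions were the 4447 strongest of the relaxed list. The signal of a region is the authors' own value, on a scale that the labels and file records leave unnamed. It ran from 27.1 to 2129.8 in the relaxed list, and the lowest IDR signal was 119.6. A gene was counted as having a summit when one lay in the gene or within 2 kb of either end.

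Few receptor genes had a summit. In the IDR list 7 of 179 members had one (3.91%, exact 95% interval 1.59 to 7.89%), against 24.9% of all protein-coding genes. These were Or85f, the taste receptor genes Gr32a, Gr89a, Gr93a and Gr97a, and the ionotropic receptor genes Ir68b and Ir85a. Not one of the 179 gene bodies held an IDR summit, which allows a share of up to 1.68% when 3 counts are taken as the limit of a count of 0 (exact 95% upper limit 2.04%), against 11.6% of all gene bodies. The intervals cover counting error only, treat genes as separate although tandem members share flanks, and do not measure variation between embryo collections.

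The relaxed list gave a similar picture. In it 34 members had a summit within 2 kb (19.0%, interval 13.5 to 25.5%), against 59.8% of all genes, and 145 had none. A relaxed summit lay in the body of 6 members (3.35%), against 35.6% of all genes. With 5 kb on either side, 21 members (11.7%) had an IDR summit, against 36.2% of all genes, and 56 members (31.3%) had a relaxed one, against 69.6% of all genes. Of the 34 members with a relaxed summit, 7 also had an IDR one (20.6%, interval 8.7 to 37.9%), against 41.6% of the 8345 genes with a relaxed summit. A gene with more relaxed summits has more chances to be counted here. Among the 2768 genes of 1378 to 2204 bp, the members' quartiles of length, 542 had an IDR and 1583 a relaxed summit. Of the 89 members of that length, 3 had an IDR and 18 a relaxed summit. The member side of this comparison rests on these 3 genes.

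The 3 families were then compared. An IDR summit within 2 kb was found at 1 of 59 Or genes (1.69%, interval 0.0429 to 9.09%), 4 of 60 Gr genes (6.67%, 1.85 to 16.2%) and 2 of 60 Ir genes (3.33%, 0.406 to 11.5%). A relaxed summit was found at 7 Or genes (11.9%, 4.91 to 22.9%), 14 Gr genes (23.3%, 13.4 to 36.0%) and 13 Ir genes (21.7%, 12.1 to 34.2%). The intervals of the families overlapped in both lists, and the difference between families was not tested. In both lists each family's interval lay below the share of all genes. In the relaxed list the counts were 4 Or, 13 Gr and 13 Ir genes within 1 kb, and 18 Or, 20 Gr and 18 Ir genes within 5 kb.

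**Figure D1:**
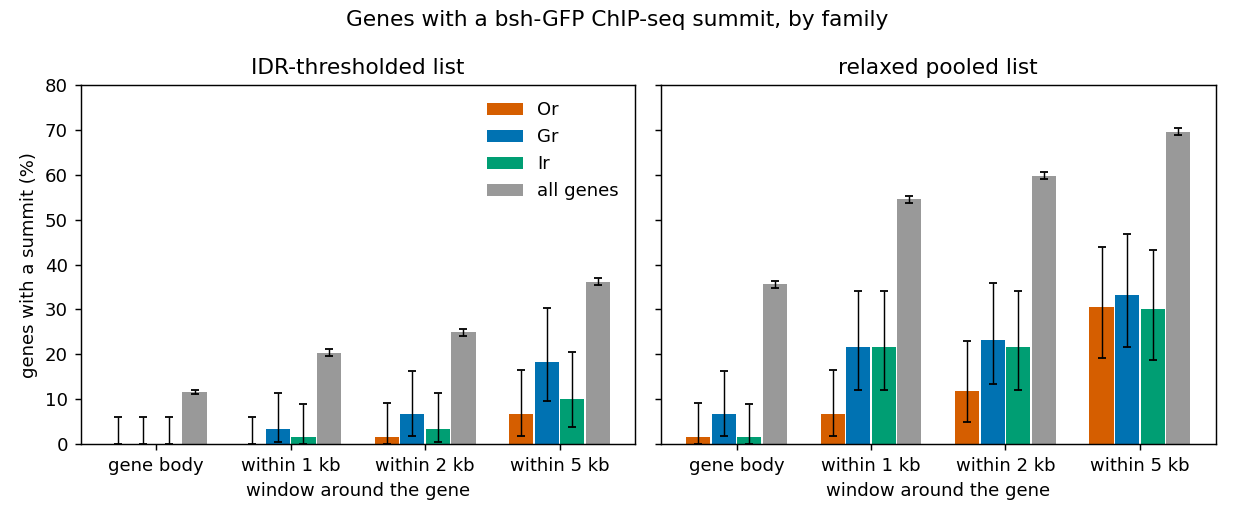
Percent of genes with a summit in the gene body or within 1, 2 or 5 kb of it, for Or, Gr, Ir and all protein-coding genes, in the IDR list (left) and the relaxed pooled list (right). Bars are shares and whiskers exact 95% intervals for counting error; the coloured bars are below the grey bar in every window, with no IDR summit in any receptor gene body.

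The replicates gave close values. When the 4447 strongest regions of each replicate were used in place of the IDR list, 10 members had a summit in replicate 1 (5.59%, against 24.7% of all genes) and 8 in replicate 2 (4.47%, against 26.0%). The mean was 5.03% ± 0.79 for members and 25.4% ± 0.872 for all genes (SD, n = 2 replicates), so the gap was larger than the spread between replicates. All 7 members with an IDR summit were among those found in both replicates, counted by gene and not by region. At Ir68b the stronger IDR region ranked 1209 and 6091 in replicates 1 and 2, and the weaker 5042 and 4225. Neither was thus among the 4447 strongest of both. The IDR regions were the 4447 strongest of the list called on both replicates together. Finding the 7 members in both replicates is therefore no independent check. Or67a, Or67c and Gr94a were found in replicate 1 only, and Ir60e in replicate 2 only. In the whole lists of 30000 regions, 40 members had a summit in replicate 1 (22.3%, against 61.9% of all genes) and 37 in replicate 2 (20.7%, against 61.6%), with 33 members in both.

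Receptor genes are short, and longer genes can hold more summits, so gene length was considered next. The median length was 1691 bp for members, with 1462 bp for Or, 1397 bp for Gr and 1908 bp for Ir genes, against 2166 bp for all genes. Among genes between the members' lower and upper quartiles of length, 1378 to 2204 bp, 3 of 89 members had an IDR summit within 2 kb (3.37%), against 19.6% of the 2768 genes of that length. For relaxed summits the shares were 20.2% of those members and 57.2% of those genes. Among genes of 1 to 2 kb, 4.72% of 127 members and 18.0% of 3842 genes had an IDR summit. Of the 9 members over 4 kb, among them Ir41a with 104437 bp, 0 had an IDR summit and 3 a relaxed one (33.3%), against 41.8% and 74.9% of all genes over 4 kb. This class has no upper limit, and the longest of all genes had 1965857 bp, so it does not match length.

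Summits per length showed where the sequence around receptor genes was sparse. Relaxed summits lay at 0.167 per 10 kb in members' bodies, against 2.38 in all gene bodies. In the first 500 bp upstream, where starts of genes usually have the highest density, members had 0.782 per 10 kb and all genes 5.78. The IDR list held 0 summits in these 500 bp upstream of members, against 1.26 per 10 kb for all genes. The relaxed density at members was higher at a distance, with 1.94 upstream and 1.99 downstream at 7.5 to 10 kb, against 2.59 and 2.58 for all genes. The median distance from a member's start to the nearest IDR summit was 27204 bp, against 11805 bp for all genes, and to the nearest relaxed summit 11029 bp, against 1340 bp.

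**Figure D2:**
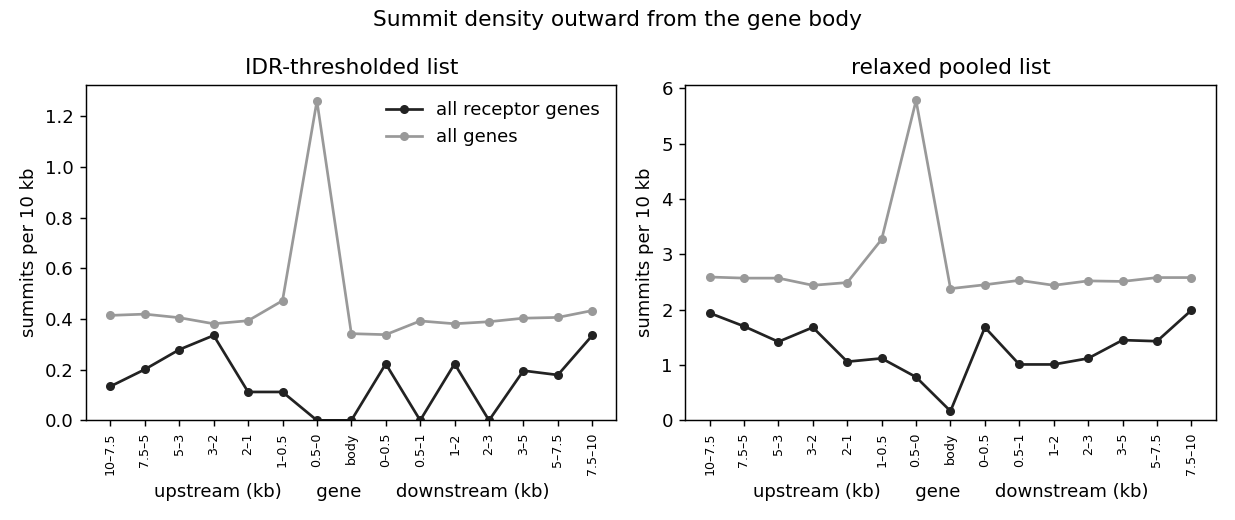
Summits per 10 kb in the gene body and in distance classes outward from it (kb, upstream left and downstream right), for all receptor genes (black) and all protein-coding genes (grey), in the IDR list (left) and the relaxed pooled list (right). For all genes the density peaks in the first 0.5 kb upstream (5.78 in the relaxed list), whereas for receptor genes it is 0.782 there and lowest in the body, at 0.167.

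The sequences at 6 of the 9 IDR summits near members are printed. Those at Or85f and Ir85a and the stronger one at Gr89a are each family's highest signal within 2 kb. The nearer one at Gr89a and the one at Gr93a have a member's start as the nearest start, and the one at Gr32a is the closest to a member's start. Each is 201 bp of the RefSeq dm6 assembly, plus strand, 5′ to 3′, centred on the summit. Capitals mark matches, on either strand, to TAATTA (the homeodomain core word), CAATTA (which shares the letters AATTA with it) or GAGAGA (the GAGA factor word); the words were looked for as letters only.
Or85f, chr3R:9401231-9401431: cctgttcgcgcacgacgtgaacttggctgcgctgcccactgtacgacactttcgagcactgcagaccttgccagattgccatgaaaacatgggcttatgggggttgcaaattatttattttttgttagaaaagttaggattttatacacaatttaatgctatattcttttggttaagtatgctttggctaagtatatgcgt
Gr32a, chr2L:11113248-11113448: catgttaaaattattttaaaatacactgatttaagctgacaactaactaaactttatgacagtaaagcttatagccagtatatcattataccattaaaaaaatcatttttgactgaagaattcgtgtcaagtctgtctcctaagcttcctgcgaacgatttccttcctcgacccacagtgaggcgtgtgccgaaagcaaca
Gr89a stronger summit, chr3R:16496325-16496525: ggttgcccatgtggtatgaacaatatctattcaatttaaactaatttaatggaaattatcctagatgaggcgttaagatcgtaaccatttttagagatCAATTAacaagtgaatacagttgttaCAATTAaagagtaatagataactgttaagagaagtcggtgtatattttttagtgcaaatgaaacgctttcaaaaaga
Gr89a nearer summit, chr3R:16497581-16497781: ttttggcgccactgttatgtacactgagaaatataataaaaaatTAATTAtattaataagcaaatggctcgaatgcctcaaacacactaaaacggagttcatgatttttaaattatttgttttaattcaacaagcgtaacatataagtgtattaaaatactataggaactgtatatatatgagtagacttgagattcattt
Gr93a, chr3R:21830527-21830727: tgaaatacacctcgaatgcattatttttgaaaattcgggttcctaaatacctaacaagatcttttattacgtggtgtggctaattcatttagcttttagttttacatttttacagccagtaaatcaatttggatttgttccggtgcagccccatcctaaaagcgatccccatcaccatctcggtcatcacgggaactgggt
Ir85a, chr3R:8792703-8792903: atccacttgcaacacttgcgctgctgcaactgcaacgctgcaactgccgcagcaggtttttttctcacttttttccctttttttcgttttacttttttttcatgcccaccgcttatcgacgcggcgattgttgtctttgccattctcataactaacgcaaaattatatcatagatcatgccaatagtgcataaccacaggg

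Only the Gr89a windows held one of the 3 words among all 9 IDR summits near members. The stronger one had CAATTA beginning 2 bp before and 24 bp after the summit, and the nearer one had TAATTA beginning 56 bp before it. TAATTA was thus in 1 of 9 windows (11.1%, interval 0.281 to 48.2%), against 13.6% of all IDR summits, CAATTA in 1 of 9, against 15.9%, and GAGAGA in 0 of 9, against 16.3%. Over the 83 distinct relaxed summits near members, TAATTA was in 9.64%, CAATTA in 13.3% and GAGAGA in 7.23%, against 12.4%, 17.0% and 11.9% of all relaxed summits. The members' intervals included the value for all summits in each of these cases.

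The odorant receptor with an IDR summit was Or85f (3R 9398190 to 9399551), a receptor known from neurons that respond to parasitoid wasp odours. Its summit had a signal of 176.3 and lay 1780 bp downstream of the gene. It was 105 bp from the start of RpL34b, a ribosomal protein gene. The region ranked 2910 in replicate 1 and 1961 in replicate 2. Next among Or genes came Or45b, a larval receptor gene, with a relaxed signal of 114.5 at 1956 bp upstream, ranks 5200 and 6358 in replicates 1 and 2.

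Or67a was the only Or gene with relaxed summits in its body. It held 3 there, the strongest with a signal of 96.4 at 179 bp inside the start, and that region ranked 4209 in replicate 1 and 17032 in replicate 2. Or67c had 92.5 at 805 bp downstream, ranking 4047 and 16210 in replicates 1 and 2. Or71a had 83.3, at a summit 70 bp from the start of its host gene Plp, which encodes a centrosomal protein, with ranks 5117 and 16563. For these 3 genes the region ranked higher in replicate 1 than in replicate 2.

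Among gustatory receptors the highest signal within 2 kb was at Gr89a (3R 16497817 to 16498959), a gene found in many bitter-sensing neurons. Its pair of IDR summits, shown above, lay downstream. The stronger had a signal of 268.7 and was nearest to the start of Cad89D, a cadherin gene, at 1003 bp, with ranks 1493 and 963 in replicates 1 and 2. The other had 172.9, lay 136 bp beyond the gene's end, and ranked 3479 and 1947. It had the Gr89a start as its nearest start, at 1278 bp, and was the IDR summit closest to any member's body.

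Gr32a (2L 11114014 to 11115823), a receptor gene of bitter-sensing neurons with a role in male courtship, had an IDR summit with signal 225.1 at 666 bp upstream of its start. This was the smallest distance between an IDR summit and a member's start. The start of its neighbour Idua, a lysosomal enzyme gene, was closer, at 287 bp. The region ranked 1579 and 1689 in replicates 1 and 2. Gr97a (3R 26965124 to 26966485) had a summit with signal 175.7 at 1174 bp downstream, in an intron and nearest to the tetraspanin gene Tsp97E, with ranks 2117 and 3275.

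Gr93a (3R 21832503 to 21834013), known for a part in caffeine taste, had an IDR summit with signal 199.4 at 1876 bp upstream, ranking 1877 and 1703 in replicates 1 and 2, and no other start was nearer. It belongs to a cluster of 4 genes, Gr93a to Gr93d. All 4 had relaxed summits within 2 kb, 13 distinct ones with signals from 28.1 to 199.4. Within 5 kb of these genes lay 6 distinct IDR summits, with signals from 199.4 to 391.2, all intergenic and each with a Gr93 start as the nearest. The strongest, with 391.2, lay between Gr93a and Gr93b and ranked 500 and 618 in replicates 1 and 2. A pair upstream of Gr93d had 382.4 and 234.2. Over all members 28 distinct IDR summits lay within 5 kb, with signals from 120.8 to 1071.7. The highest was 4057 bp downstream of Gr47b, in an intron and 752 bp from the start of CG13204, with ranks 43 and 30 in replicates 1 and 2. Of the 28, 8 had a member as the nearest start: the 6 here, the nearer Gr89a summit and one 2217 bp upstream of Ir48b with signal 157.7. The Gr93 cluster was chosen for description after its values were seen.

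The strongest summit within 2 kb of any member belonged to an ionotropic receptor gene, Ir85a (3R 8794684 to 8796966), with a signal of 342.8 and ranks 947 and 473 in replicates 1 and 2. Ir85a lies wholly inside Pif1A and Pif1B, and the summit, 1881 bp upstream of Ir85a, was 256 bp from a Pif1A start. Ir68b (3L 12125487 to 12127394) had IDR summits with signals of 201.3 and 121.1 at 341 and 1071 bp downstream. Both were nearest to yps, which encodes a Y-box protein that binds RNA, the stronger at 4 bp from its start. The stronger region ranked 1209 in replicate 1 and 6091 in replicate 2.

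Ir60e had a relaxed signal of 101.7 at 1 bp from the start of CG13585, and Ir94e had 76.1 at 782 bp downstream of the gene. Of the co-receptor genes, Ir25a had a relaxed signal of 87.1 at 246 bp downstream, 93 bp from the start of Fnta, a farnesyltransferase subunit gene, and another of 65.0 at 13 bp from its own start. The summit at its own start ranked 13565 and 7614 in replicates 1 and 2. Ir8a and Ir76b had no relaxed summit within 2 kb, and their nearest ones were 6969 and 74001 bp away.

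**Figure D3:**
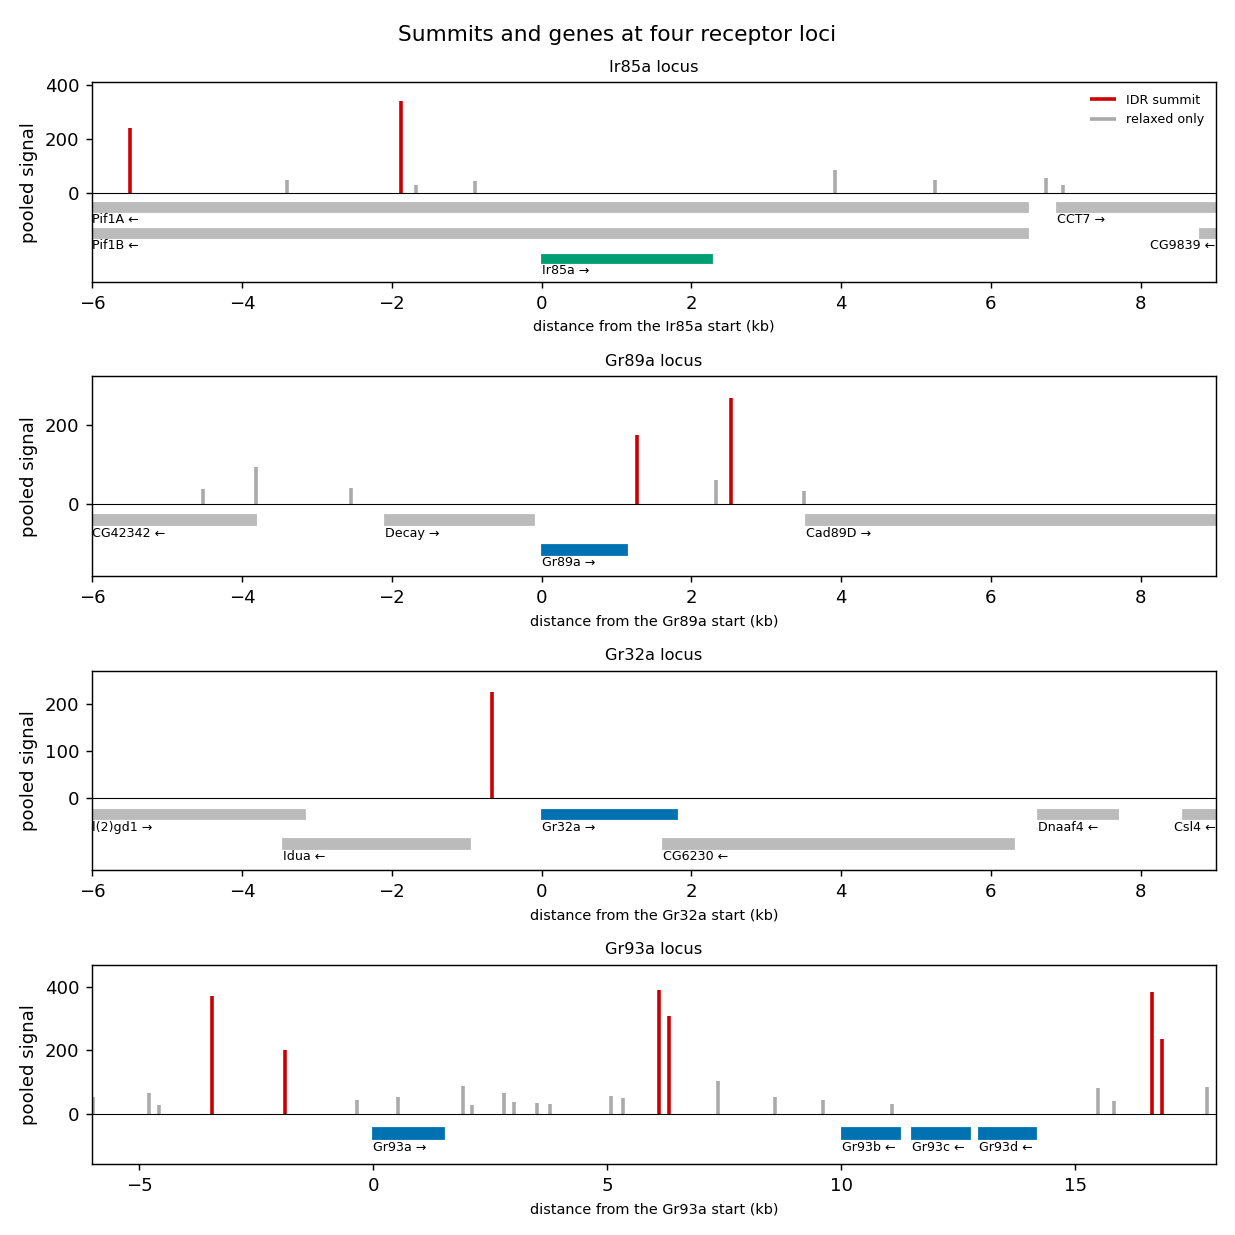
Pooled signal (authors' signal value) of IDR summits (red) and relaxed-only summits (grey) by distance in kb from the start of Ir85a, Gr89a, Gr32a and Gr93a, with protein-coding genes as bars below (Gr blue, Ir green, others grey; arrows give the direction of transcription). The IDR summits lie outside every receptor gene body, and 6 of them, with signals from 199.4 to 391.2, surround Gr93a to Gr93d.

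The strongest signal per gene was then set beside that of all genes. Of the 34 members with a relaxed summit, the strongest one per gene ran from 28.2 to 342.8 with a median of 77.7, against a range of 27.2 to 2129.8 and a median of 101.6 for all genes with a summit. The strongest of many summits tends to be higher than the strongest of few. Counted per gene, the 34 members had 86 relaxed summits and the 8345 genes 39526. Genes with like numbers of summits were not compared. The median was 92.5 for 7 Or genes, 80.3 for 14 Gr genes and 70.3 for 13 Ir genes. Nearest below the IDR threshold of 119.6 were Gr94a, inside the p53 gene, with 115.9, and Or45b. The Gr94a summit lay 1216 bp downstream of Gr94a and 37 bp from a p53 start. Gr94a ranked 2908 in replicate 1 and 20931 in replicate 2. Of the 34 strongest summits, 33 overlapped a region of replicate 1 by at least 1 bp, 28 one of replicate 2, and 27 both.

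**Figure D4:**
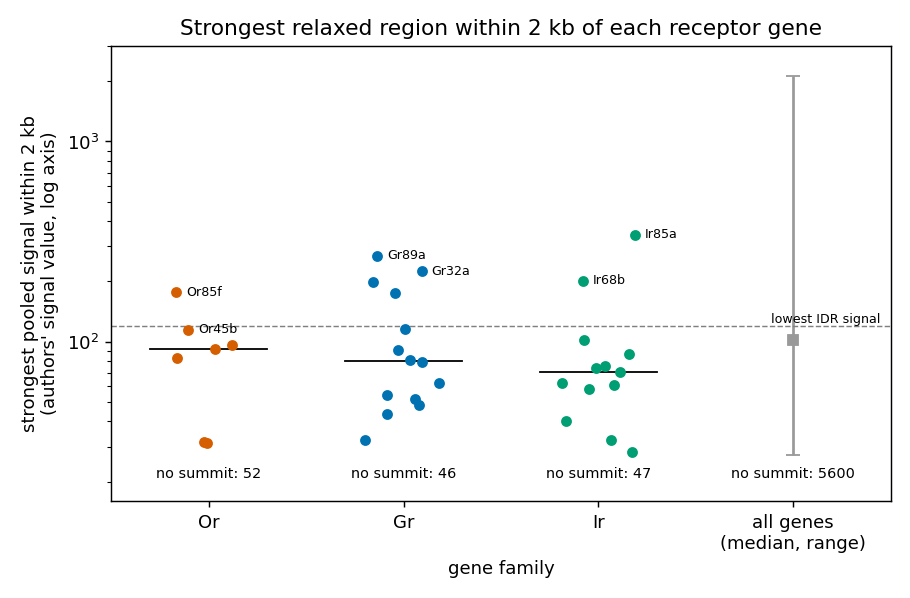
Signal of the strongest relaxed region within 2 kb of each receptor gene (authors' value, log axis), by family, with a line at the family median, and the median and full range for all genes at the right; genes with no summit are counted along the bottom. Ir85a is highest at 342.8, and 7 genes lie above the dashed line at the lowest IDR signal, 119.6.

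The start nearest to each summit was then looked up. Of the 9 IDR summits, 7 had a gene outside the families as the nearest start. Crediting only the nearest start left 2 members (1.12%, in place of 3.91%) and 14.7% of all genes, in place of 24.9%. Promoter summits, within 500 bp of an annotated protein-coding start, were 4 of the 9 (44.4%, interval 13.7 to 78.8%), against 36.9% of all IDR summits. Of the 83 distinct relaxed summits, 36 were nearest to another gene and 47 to a member. Crediting only the nearest start left 23 members (12.8%, in place of 19.0%) and 44.7% of all genes, in place of 59.8%. Both shares thus fall when neighbours are credited. By location, 42.2% of these 83 were promoter summits (interval 31.4 to 53.5%), 36.1% intergenic, 14.5% in introns and 4.82% in coding exons, against 27.4%, 21.1%, 45.7% and 2.23% of all relaxed summits. The 83 were taken for lying in or within 2 kb of mostly short genes, and all relaxed summits were not. Location near other short genes was not tested. Members with the start of a gene outside the families within 2 kb had a relaxed summit in 17 of 61 cases (27.9%), against 65.3% of all genes with such a neighbour. Members without one had a summit in 17 of 118 cases (14.4%), against 42.2% of all genes without one.

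The distance limit of 2 kb set which members were counted. Just inside it for IDR summits were Or85f at 1780 bp, Gr93a at 1876 bp and Ir85a at 1881 bp. Just outside were Ir48b at 2217 bp, Gr93d at 2495 bp and Ir25a at 2571 bp. The Ir25a summit had a signal of 770.1 and ranks 136 and 55 in replicates 1 and 2, and it was 128 bp from the start of tank.

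Tandem arrangement was examined next. Members were joined where their bodies lay within 10 kb of each other. Of 97 members that stood alone, 26 had a relaxed summit (26.8%), of 24 in pairs 2 had one (8.33%), and of 58 in clusters of 3 or more 6 had one (10.3%), 4 of them in the Gr93 cluster. The 6 sugar receptor genes Gr64a to Gr64f, the 6 genes Ir7b to Ir7g, the 5 genes Gr22a to Gr22e and the 4 genes Ir52a to Ir52d had 0. Lone members were still below the 59.8% of all genes. Whether reads from similar tandem copies were lost in alignment was not tested. Of 30 members wholly inside another protein-coding gene 6 had a relaxed summit (20.0%), against 18.8% of the other members. The 30 include Gr64b, Gr64c, Gr64e, Gr10a and Or10a, which lie inside another receptor gene only and had no relaxed summit. The share over all genes inside another gene was not computed.

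By chromosome arm, 12 of 35 members on 3L (34.3%) and 11 of 42 on 3R (26.2%) had a relaxed summit, against 61.7% and 58.4% of all genes on these arms. On 2L it was 4 of 31 (12.9%), on 2R 6 of 46 (13.0%) and on X 1 of 25 (4.0%), against 56.1%, 60.0% and 63.2% of all genes there. The member on X was Gr5a, a sugar receptor gene, whose summit was 47 bp from the start of its neighbour Tre1, a G-protein-coupled receptor gene. Of the 7 members with IDR summits, 5 were on 3R, which is 11.9% of the members there, against 24.2% of all genes on 3R.

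Members were also counted by known role, beside shares of 24.9% (IDR) and 59.8% (relaxed) over all genes. Of the larval receptors, 0 of 25 Or genes had an IDR summit and 1, Or45b, a relaxed one (4.0%). Of 9 sugar receptor genes 0 had an IDR summit, and Gr5a a relaxed one with signal 79.3. Of the pair of carbon dioxide receptor genes, Gr63a had a relaxed signal of 90.8 at 162 bp from the start of Lamtor4, and Gr21a had none. Of 5 Gr genes found in most bitter-sensing neurons, Gr32a and Gr89a had IDR summits, and Gr39a and Gr66a weaker relaxed ones with 32.4 and 54.0. The Gr66a summit was 151 bp from the start of Sbp2, and its region overlapped none of replicate 2. The Gr39a summit had a Gr39a start as the nearest. Of 14 antennal Ir genes 0 had an IDR summit and 3 a relaxed one: Ir31a with 74.2, the humidity receptor gene Ir68a with 62.3, and Ir76a with 28.2. The Ir31a summit was 29 bp from the start of Ip259, and those at Ir68a and Ir76a had their own gene's start as the nearest. The Ir68a region ranked 24375 and 7517 in replicates 1 and 2. The Ir76a signal was close to the lowest of the relaxed list, 27.1, and its region overlapped none of replicate 2.

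Other chemosensory genes were counted in the same way. Of 51 odorant-binding protein genes, which encode small secreted carriers of odorants, 6 had an IDR summit within 2 kb (11.8%) and 19 a relaxed one (37.3%). All genes had 24.9% and 59.8%. The odorant-binding protein genes had a median length of 788 bp, and of all genes under 1 kb 11.3% had an IDR and 40.6% a relaxed summit. The IDR summits were at Obp56a and Obp56b, which shared one with signal 413.7, Obp99b (281.2), Obp83ef and Obp83g, which shared one with 183.4, and Obp83cd (143.9). Of 12 accessory and transduction genes, 2 had an IDR summit (16.7%) and 5 a relaxed one (41.7%). Of these, norpA, which encodes phospholipase C, had the strongest IDR summit (386.3), and ppk29 had one with 138.2 that was 37 bp from the start of eEF5. Orco, the odorant co-receptor gene, had no relaxed summit within 2 kb, and its nearest IDR and relaxed summits were 17572 and 14057 bp from the gene.

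Of 15 genes for transcription factors with known parts in choosing receptors or building olfactory neurons, 5 had an IDR summit (33.3%) and 11 a relaxed one (73.3%), against 24.9% and 59.8% of all genes. Their median length was 19487 bp, and of all genes over 4 kb 41.8% had an IDR and 74.9% a relaxed summit. Eip93F had the strongest summit, with signal 790.4 at 63 bp from its start. The others were ct (418.4), Xbp1 (228.7, nearest to Hmg-2), hth (8 summits, the strongest 188.3) and pdm3 (131.8). The POU factor gene acj6, and amos, ato and Fer1, had no relaxed summit within 2 kb.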

How the data were processed

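ChIP-seq of bsh-GFP was deposited as region lists on dm6 and dm3. Per the file records deposited with them, the authors called relaxed lists for each replicate and for both pooled, and derived the IDR list from these. The aligner, caller and IDR cutoff were not given in the sources used here. Each deposited signal is the authors' value per region and was used within a list only. The deposited −log10 q-value served no result. The dm3 lists were not used, as no dm3 annotation was at hand.

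Summits were placed against protein-coding genes of Ensembl release 115 on 2L, 2R, 3L, 3R, 4 and X, and sequence came from the RefSeq dm6 assembly. Intervals are exact (Clopper-Pearson, 95%) and cover counting error only. Placement was tested on simulated data. Tables were made in Python 3.11.15 with pandas 2.3.3 and numpy 2.4.6, intervals with scipy 1.17.1 and figures with matplotlib 3.10.9. Depth is unknown.

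Members, role lists and windows were chosen with earlier results of these data known. Genes named by a set rule were those with an IDR summit, the 5 strongest per family, co-receptors and role-list genes with an IDR summit. The rule also took the 3 members nearest to 2 kb on either side. Further genes were named outside the rule, to describe roles, clusters, chromosome arms, gene length or the highest signal within 5 kb. Alternatives changed the window, the gene assignment, the threshold and the replicate.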

Additional observations from a re-analysis of the deposited data

How the results depend on the processing

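In every alternative run, the members' share was below that of all genes. Counts that moved by over 1.5 times from the main ones (IDR 7, with 1 Or, 4 Gr and 2 Ir; relaxed 34, with 7, 14 and 13) are given here; the other 47 of 86 alternative values moved less. IDR counts for all members, Or, Gr and Ir were 0, 0, 0 and 0 in gene bodies, 3, 0, 2 and 1 within 1 kb, and 21, 4, 11 and 6 within 5 kb. They were 2, 0, 2 and 0 when only the nearest start was credited, 1, 0, 1 and 0 within 1 kb of a start, and 17, 5, 8 and 4 with double the number of pooled regions. The IDR list restricted to regions above its median signal left 0 Or genes. Relaxed counts were 6, 1, 4 and 1 in gene bodies, and 19, 1, 10 and 8 within 1 kb of a start. The Or count was 4 within 1 kb, and within 5 kb there were 56 members, 18 of them Or genes. The nearest start alone gave 9 Gr and 8 Ir genes. Per length, Ir genes had 0.512 relaxed summits per 10 kb, against 2.6 for all genes; the long Ir41a is part of this. A smaller window or list holds fewer summits by construction.

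With 1 replicate left out, IDR-sized lists gave 8 to 10 members, with 1 to 3 Or, 4 to 5 Gr and 2 to 3 Ir genes, so the Or count rests on the replicate: it was 3 in replicate 1 alone. Unknown depth limits what the absence of a summit shows: a weaker region would not be in these lists. No paired analysis was possible because both samples belong to a single group.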

Other observations

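The 7 pseudogenes that carry such symbols, Or98P and Ir47b, Ir48a, Ir51a, Ir56e, Ir60c and Ir60f, had 0 relaxed and 0 IDR summits within 2 kb. The relaxed and IDR shares were 19.0% and 3.91% of members, and 59.8% and 24.9% of all protein-coding genes. The pseudogenes are few, and a difference from members was not tested.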
